A study of Rattus norvegicus with 69 samples.

Results

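Heterotrimeric G proteins and their RGS regulators were followed across the CA1 arrays of home cage, sleep deprived and stressed rats. Members were the genes whose probe set carried a single symbol of the G alpha, G beta, G gamma or RGS type, and the probe set with the highest mean log2 signal stood for each gene. This gave 27 of the 4736 genes measured: 8 G alpha, 5 G beta, 5 G gamma and 9 RGS genes. They were covered by 42 probe sets, and 11 members had more than 1. No filter on signal was used. Rgs2 and Gnaq were not analysed here, and neither was Gnai3, because the probe set that carries its symbol carries Gnai1 as well.

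A heterotrimeric G protein passes the signal of a receptor in the membrane to enzymes and channels inside the cell. The alpha subunit binds GTP when the receptor is active, parts from the beta and gamma dimer, and both then act on effectors until the alpha subunit hydrolyzes the GTP. RGS proteins speed up that hydrolysis and so shorten the signal. In hippocampal neurons these proteins carry the actions of acetylcholine, noradrenaline, serotonin, adenosine, GABA and glutamate at their metabotropic receptors, several of which follow sleep and waking.

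CA1 tissue came from male Fischer 344 rats 3 to 5 months old, each measured on its own array. HC is the home cage control. In 24SD and 72SD, rats were deprived of sleep for 24 or 72 hours on small platforms above water, and in 24NES and 72NES they spent as long in the same chamber with a grid laid over the platforms, which did not prevent sleep. Cohort 1 held 5 HC, 8 24SD, 8 72SD, 10 24NES and 6 72NES arrays, and cohort 2 held 12 HC, 8 24SD and 12 72SD arrays. Active avoidance training was given to HC and SD rats in cohort 1, and the NES rats are not named among those trained. Rats were housed and placed in chambers as pairs that cannot be identified here, so the tests count every rat as its own replicate. The SD and NES comparisons of cohort 1 share the same 5 HC arrays.

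Among markers of CA1 pyramidal cells, 4 of 7 listed genes were measured: Hpca and Nrgn lay at the 98.5 and 99.0 percentile of all probe sets and Camk2a at the 69.9 percentile, whereas the probe set of the vesicular glutamate transporter Slc17a7 lay at the 5.82 percentile. Over 200 genes that separate the cohorts, none of them a member, HC arrays 6 and 17 of cohort 2 stood at 24.2% and 24.0% of the way from the cohort 1 mean to the cohort 2 mean, and the other 10 HC arrays of cohort 2 stood at 79.0% to 108%. Arrays 60 and 61 of 24NES stood at 43.3% and 36.7%, and no other array of cohort 1 was above 17.6%. The cohort labels of these 4 arrays were kept as given, and whether they are right was not tested. Results that rest on these arrays are given with and without them.

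The clearest difference among the members was in Rgs4, which after 24 hours of sleep deprivation was 0.510-fold its HC level in cohort 1. In cohort 2 it was 1.04-fold with all arrays and 0.843-fold without HC arrays 6 and 17. The difference between the cohorts did not pass the adjusted test, and neither did Rgs4 over both cohorts at 24SD. Rgs4 is a neuronal RGS protein that acts on the Gi and Gq classes of alpha subunit. Over both cohorts Gna12, an alpha subunit, fell by 0.30 on the log2 scale at 24SD, and Gng5, a widely expressed gamma subunit, had a log2 difference of 0.36 that did not pass the adjusted test. Over both durations together (F-test), 2 of the 27 members had an unadjusted p under 0.05, beside 10.4% of all genes, and none passed the adjusted threshold, beside 0.148%. In the methods' analysis of variance with removal of values over 2 SD, both passed it, with an adjusted p of 0.0488 for Gna12 and 0.0211 for Gng5, beside 2.07% of all genes. Without that removal the same analysis passed no member, beside 0.148% of all genes. Of the 27 members, 4 had an unadjusted p under 0.05 at 24SD, beside 15.2% of all genes, and 2 at 72SD, beside 7.5%. Gna12 at 24SD was the 1 member past the adjusted threshold of 0.05, beside 0.57% of all genes, and no member passed it at 72SD, beside 0.0211%.

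The promoters of these 3 genes are shown because the sleep deprivation results turn on them. Each line gives the 250 bases before the RefSeq start on build GRCr8, 5′ to 3′ on the strand of the gene, with GC boxes (GGGCGG) and CCAAT boxes (CCAAT) of either strand in capitals.
Rgs4 (chr13:84475885-84476134, - strand): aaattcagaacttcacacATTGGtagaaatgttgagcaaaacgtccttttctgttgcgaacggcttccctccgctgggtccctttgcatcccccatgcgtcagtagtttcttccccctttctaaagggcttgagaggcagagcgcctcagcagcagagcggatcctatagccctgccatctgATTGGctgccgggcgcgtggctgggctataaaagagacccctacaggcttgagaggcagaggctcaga
Gna12 (chr12:18919379-18919628, + strand): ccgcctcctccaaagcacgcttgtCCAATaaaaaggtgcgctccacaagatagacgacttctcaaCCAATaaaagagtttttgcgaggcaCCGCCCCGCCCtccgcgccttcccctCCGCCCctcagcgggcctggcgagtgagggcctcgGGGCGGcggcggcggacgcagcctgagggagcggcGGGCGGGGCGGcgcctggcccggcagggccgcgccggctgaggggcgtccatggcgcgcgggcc
Gng5 (chr2:238054704-238054953, + strand): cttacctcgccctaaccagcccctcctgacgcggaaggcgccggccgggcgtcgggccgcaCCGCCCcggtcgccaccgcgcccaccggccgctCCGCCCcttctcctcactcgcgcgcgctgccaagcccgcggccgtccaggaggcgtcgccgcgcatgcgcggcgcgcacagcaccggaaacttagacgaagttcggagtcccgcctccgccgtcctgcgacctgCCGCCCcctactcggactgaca
Rgs4 held 2 CCAAT boxes, at 232 and 68 bases before the start, and no GC box, and 54.4% of its bases were G or C. Gna12 held 6 GC boxes, of which 2 pairs share a base, and 2 CCAAT boxes, with 72.0% G or C. Gng5 held 3 GC boxes and no CCAAT box, with 75.2% G or C. Among all 33469 promoters of this length, 30.5% held a GC box and 34.0% a CCAAT box, and among the 22 members with a promoter in the table the counts were 11 and 5. The cyclic AMP element TGACGTCA was in 1.59% of all promoters and in 1 of the 22 members, and the E-box CACGTG was in 5.59% and in 2. The palindromic consensus of the glucocorticoid response element was in 0.012% of all promoters and in 0 of the 22. None of these last 3 motifs was in the windows of Rgs4, Gna12 or Gng5.

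In cohort 1 the Rgs4 signals of the 5 HC arrays were 387.1, 407.2, 491.8, 586.1 and 603.4. The 8 24SD arrays ran from 203.7 through a median of 247 to 296.9, and the 8 72SD arrays from 215.9 through 281 to 520.5. Every 24SD array was below every HC array, a lack of overlap in that direction that 0.401% of all genes showed, and Rgs4 was the only member to show it in either direction; at 72SD array 43 alone lay within the HC range. The log2 difference from HC was -0.97 at 24SD, with a 95% interval of -1.33 to -0.62, and -0.71 at 72SD, with an interval of -1.06 to -0.35. With cohort 1 fitted alone, the adjusted p in limma was 0.0103 at 24SD and 0.0974 at 72SD. Rgs4 was the only member past the adjusted threshold in that fit, beside 0.296% of all genes at 24SD and 0.211% at 72SD, where no member passed. The adjusted p at 24SD ran from 0.00479 to 0.0471 over 11 alternatives, which included leaving out each HC array in turn.

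**Figure D1:**
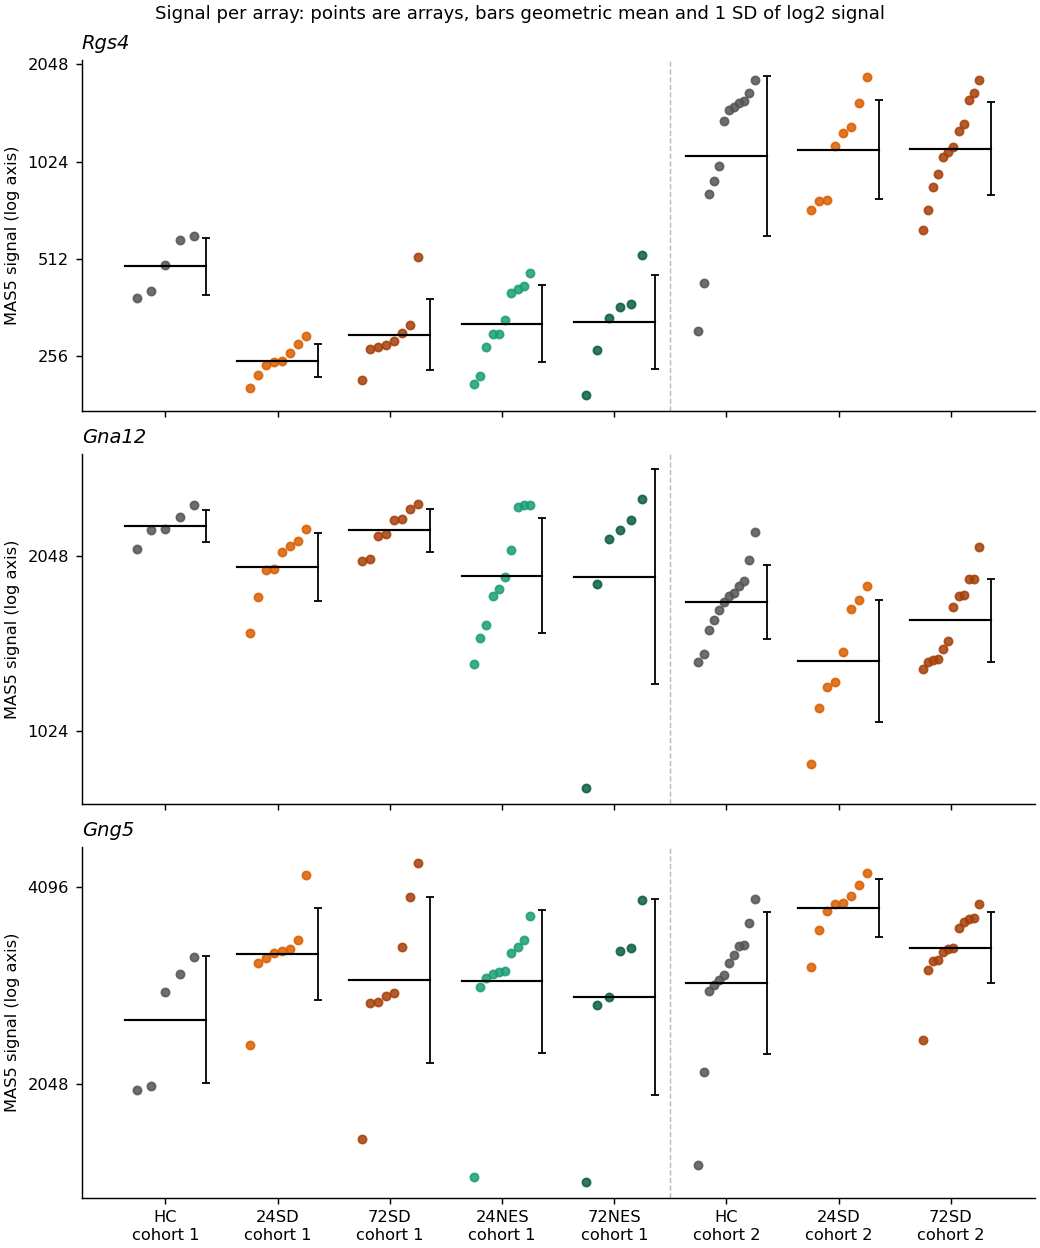
MAS5 signal of Rgs4, Gna12 and Gng5 on each array (log axis), by group and cohort, with the geometric mean and 1 SD of the log2 signal as bars. In cohort 1 the 24SD points of Rgs4 (203.7 to 296.9) lie below all HC points (387.1 to 603.4), whereas all groups of cohort 2 overlap.

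In cohort 2 the 12 HC arrays ran from 307.5 through a median of 1424 to 1828, the 8 24SD arrays from 726.3 through 1199 to 1871, and the 12 72SD arrays from 630.3 through 1118 to 1833. The groups overlapped over nearly their whole range. The 2 lowest HC arrays were arrays 6 and 17, at 307.5 and 432.6, and the next was at 815.2. If their cohort label is wrong, the HC range of cohort 1 would start at 307.5, above the highest 24SD array (296.9) but within the range of the 72SD arrays. With all arrays the log2 difference was 0.06 at 24SD, with an interval of -0.49 to 0.61, and 0.07 at 72SD, with an interval of -0.42 to 0.57. Without arrays 6 and 17 it was -0.25 at 24SD, with an interval of -0.66 to 0.17, and -0.24 at 72SD, with an interval of -0.61 to 0.14, so its sign rested on those arrays.

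The difference between the cohorts in the 24SD effect was 1.03 ± 0.37 (SE) on the log2 scale, with an unadjusted p of 0.00735 and an adjusted p of 0.520 in limma, and without arrays 6 and 17 it was 0.72 ± 0.29 (SE) with an unadjusted p of 0.0151. Unadjusted, 7.69% of all genes and 2 of 27 members, Gng10 and Rgs4, passed for 24SD by cohort. At 72SD the difference between the cohorts was 0.78 ± 0.36 (SE), with an unadjusted p of 0.0328, and without the 2 arrays it was 0.47 ± 0.28 (SE), with an unadjusted p of 0.0952. Over both cohorts with cohort as a term, Rgs4 had a log2 difference of -0.32 ± 0.19 (SE) at 24SD, with an adjusted p of 0.415, and without the 2 arrays -0.54 ± 0.15 (SE) with an adjusted p of 0.0998.

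**Figure D2:**
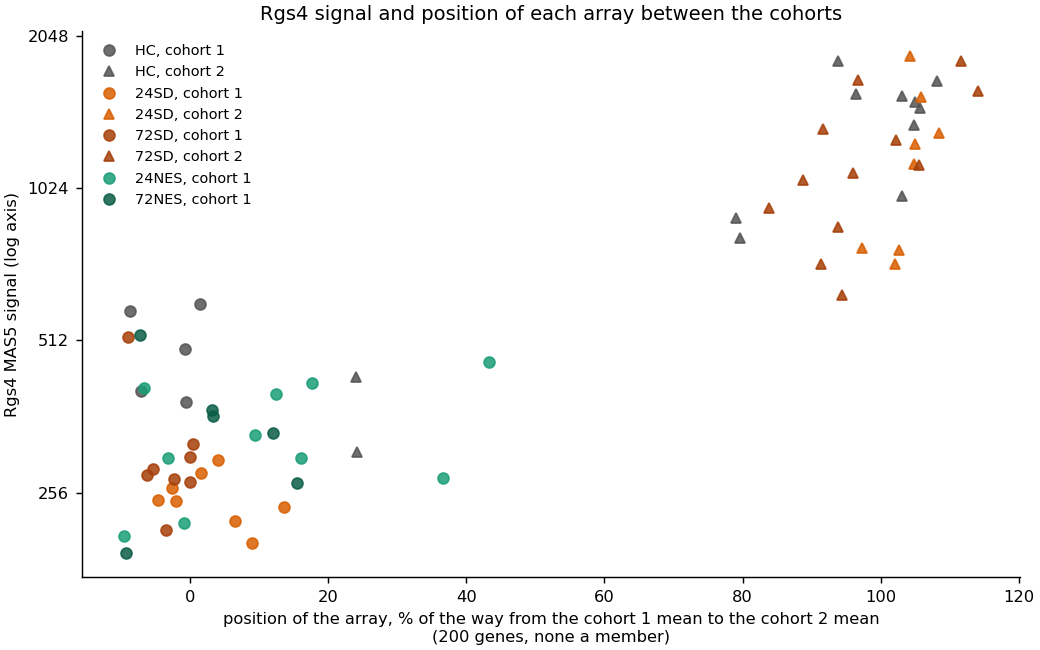
Rgs4 signal (log axis) against the position of each array between the mean of cohort 1 (0%) and that of cohort 2 (100%) over 200 other genes. HC arrays 6 and 17 of cohort 2 lie near 24% with Rgs4 signals of 432.6 or less, apart from the other arrays of their cohort.

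Markers of other cell types also differed between HC and 24SD in cohort 1. Whether they followed Rgs4 array by array was not tested. In this fit 11.1% of all genes had an unadjusted p under 0.05. Of the dentate granule cell markers, 2 of 5 were measured (Calb1, which CA1 cells also express, and Neurod1), both with an unadjusted p under 0.05 and a higher signal at 24SD, and their summed signal was 4497 to 6126 on the HC arrays and 5907 to 7156 on the 24SD arrays. Of the blood markers, 2 of 3 were measured (Alas2 and Hbb), both lower in the same way, with sums of 10670 to 12694 and 5373 to 10758. None of these dentate and blood markers was at 0. By the same unadjusted threshold 1 of 2 CA3 markers was higher, and of 6 interneuron markers 1 was higher and 1 lower. Of 5 astrocyte and 5 microglial markers 1 each was lower. No measured marker of CA1 pyramidal cells, oligodendrocytes, endothelium, choroid plexus or striatum passed it. The part of these shifts in the Rgs4 result was not tested. In tissue RNA, fewer cells of a type and less RNA per cell cannot be told apart. The 3′ to 5′ ratio of GAPDH, a sign of RNA integrity, was 0.979 to 1.18 on the HC arrays and 0.936 to 1.06 on the 24SD arrays of cohort 1.

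Over both cohorts 1 of the other RGS genes passed the unadjusted test in sleep deprivation. Of the 9 RGS genes 5 had a negative log2 difference at 24SD and 4 at 72SD, and their medians were -0.01 and 0.08, beside -0.03 and -0.02 over all genes. It was Rgs22, at 24SD (-0.20 ± 0.09 SE, adjusted p of 0.234 in limma). Its signal in cohort 1 had medians of 431 in HC and 385 in 24SD, and in cohort 2 of 317 and 279, with overlap in both. Without HC arrays 6 and 17 it did not pass the unadjusted test. Rgs14, an RGS protein with a Gi-binding motif that is abundant in CA2 neurons, had log2 differences of -0.07 ± 0.09 (SE) at 24SD and 0.10 ± 0.09 (SE) at 72SD. Rgs8, Rgs12 and Rgs19, which act on Gi class subunits, had log2 differences of -0.13 to 0.08 at the 2 times, and none had an unadjusted p under 0.05. Rgs9, which regulates striatal and retinal signalling, had log2 differences of 0.30 ± 0.19 (SE) and 0.29 ± 0.17 (SE) at median signals of 90.3 to 234 per cell of the design. Rgs1 and Rgs18, RGS genes of blood cells, had signals of 68.5 or less, at the 4.27 and 1.03 percentile of probe sets, and imprecise log2 differences: 0.26 ± 0.35 (SE) and 0.53 ± 0.32 (SE) for Rgs1, and 0.07 ± 0.23 (SE) and 0.25 ± 0.22 (SE) for Rgs18, at 24SD and 72SD.

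Among the alpha subunits Gna12 was lower at 24SD in both cohorts. Its HC signals in cohort 1 were 2101.2, 2270.1, 2277.7, 2384.5 and 2503.4, and the 24SD arrays ran from 1507.6 through a median of 2011 to 2279.0. In cohort 2 the HC arrays ran from 1345.4 through 1728 to 2248.0 and the 24SD arrays from 898.3 through 1319 to 1819.6. The groups overlapped in both cohorts, although 7 of the 8 24SD arrays of cohort 1 were below 4 of the 5 HC arrays. The log2 difference was -0.30 ± 0.08 (SE) over both cohorts, with an adjusted p of 0.0486 in limma, and -0.23 and -0.34 in cohort 1 and cohort 2 alone. This call was near the threshold: over 17 alternatives the adjusted p ran from 0.0376 to 0.689 and was above 0.05 in 13 of them, although the difference was negative in each. The second probe set of Gna12 gave -0.24 ± 0.09 (SE) at 24SD with an unadjusted p of 0.0143. Of the 4 CA1 pyramidal cell markers measured, 3 were also lower at 24SD over both cohorts, 2 of them at an unadjusted p under 0.05, with a median log2 difference of -0.12. Their summed signal was 53015 to 66198 on the HC and 51550 to 61445 on the 24SD arrays of cohort 1, and 39159 to 55794 and 34048 to 51759 in cohort 2, none was at 0, and their part in the results for Gna12 and Gnao1 was not tested.

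At 72SD the Gna12 signal was near that of HC. Its medians were 2295 in cohort 1 and 1565 in cohort 2, and the log2 difference from HC was -0.08 ± 0.07 (SE). The 72SD arrays differed from the 24SD arrays by 0.22 ± 0.07 (SE), with an unadjusted p of 0.00388 and an adjusted p of 1.00, and Gna12 was the only member with an unadjusted p under 0.05 in that comparison, beside 3.86% of all genes.

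Gnao1 encodes the major alpha subunit of brain, that of Go, which couples receptors to channels. Its HC signals in cohort 1 were 10350.3, 10861.3, 11247.5, 11667.1 and 12311.9, and the 24SD and 72SD arrays ran from 9128.4 through 10477 to 11085.5 and from 8709.1 through 9909 to 11302.1. In cohort 2 the medians were 7708 in HC, 6926 in 24SD and 6906 in 72SD. The groups overlapped in both cohorts. The log2 difference was -0.16 ± 0.07 (SE) at 24SD and -0.14 ± 0.07 (SE) at 72SD, with unadjusted p of 0.0343 and 0.0395 and adjusted p of 0.280 and 0.642 in limma, and neither passed the unadjusted test without HC arrays 6 and 17. Its second probe set gave -0.24 ± 0.07 (SE) at 24SD, with an adjusted p of 0.0844 over every probe set, and -0.20 ± 0.06 (SE) at 72SD.

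Over both cohorts, no other alpha subunit passed the unadjusted test in sleep deprivation. Gnas, the stimulatory subunit, had log2 differences of -0.13 ± 0.08 (SE) and -0.07 ± 0.07 (SE) at a median signal of 48040. Gnai1 and Gnai2, the inhibitory subunits, had differences of -0.09 and -0.14 at 24SD and of -0.10 and -0.10 at 72SD. Of the 8 alpha subunits 6 had a negative difference at each time, with a median of -0.11 at 24SD and -0.08 at 72SD, and centring each array on its median gave 5 and 6. Gnal, the stimulatory form of striatum and olfactory epithelium, had 0.51 ± 0.33 (SE) and 0.33 ± 0.31 (SE) at a median signal of 208.

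Over both cohorts the differences of all 5 beta subunits were negative at both times, with medians of -0.07 and -0.07, but none had an unadjusted p under 0.05, and at 24SD centring left 3 of the 5 negative. Gnb1 and Gnb2, the common beta subunits of brain, had differences of -0.07 and -0.08 at 24SD and -0.07 and -0.04 at 72SD. Gnb5, which pairs with Rgs9 and its relatives in place of a gamma subunit, had -0.03 ± 0.05 (SE) and -0.06 ± 0.05 (SE). Gnb3, the cone photoreceptor form, and Gnb4 had median signals of 72.9 and 71.3 and imprecise log2 differences: -0.01 ± 0.32 (SE) and -0.32 ± 0.30 (SE) for Gnb3, and -0.42 ± 0.35 (SE) and -0.14 ± 0.33 (SE) for Gnb4, at 24SD and 72SD.

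Of the gamma subunits, Gng5 had the largest difference at 24SD. Its HC signals in cohort 1 were 2002.9, 2028.7, 2831.7, 3010.0 and 3194.0, and the 24SD arrays ran from 2344.8 through a median of 3251 to 4265.6. In cohort 2 the HC arrays ran from 1539.8 through 3069 to 3921.3 and the 24SD arrays from 3089.3 through 3858 to 4301.1. The groups overlapped in both cohorts, and the 24SD median was the higher in each. The log2 difference was 0.36 ± 0.10 (SE) at 24SD, with an adjusted p of 0.0643 in limma, and 0.19 ± 0.09 (SE) at 72SD, with an adjusted p of 0.649. It was 0.33 and 0.38 in cohort 1 and cohort 2 alone. The adjusted p at 24SD passed 0.05 with each array centred on its median (0.0453), over the brighter 50% of probe sets (0.0425) and without HC array 5 (0.0467). The dimmer second probe set of Gng5 gave 0.56 ± 0.22 (SE) at 24SD with an unadjusted p of 0.0133.

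None of the other gamma subunits had an unadjusted p under 0.05 over both cohorts. Gng7, which pairs with Gnal in striatum, Gng8 and Gng11 had log2 differences of -0.03 to -0.02 at 24SD. At 72SD they were 0.08 ± 0.08 (SE) for Gng7, -0.03 ± 0.09 (SE) for Gng8 and -0.33 ± 0.24 (SE) for Gng11, whose median signal was 224. Gng10 had 0.11 ± 0.10 (SE) over both cohorts but 0.39, with an interval of 0.11 to 0.66, in cohort 1 and -0.05, with an interval of -0.30 to 0.19, in cohort 2, and the difference between cohorts was -0.44 ± 0.19 (SE) with an unadjusted p of 0.0256 and an adjusted p of 0.590. In cohort 1 its HC signals were 2251.1, 2994.4, 3113.2, 3274.0 and 3763.7, and the 24SD arrays ran from 3392.8 through 3807 to 4791.0, above 4 of the 5 HC arrays.

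**Figure D3:**
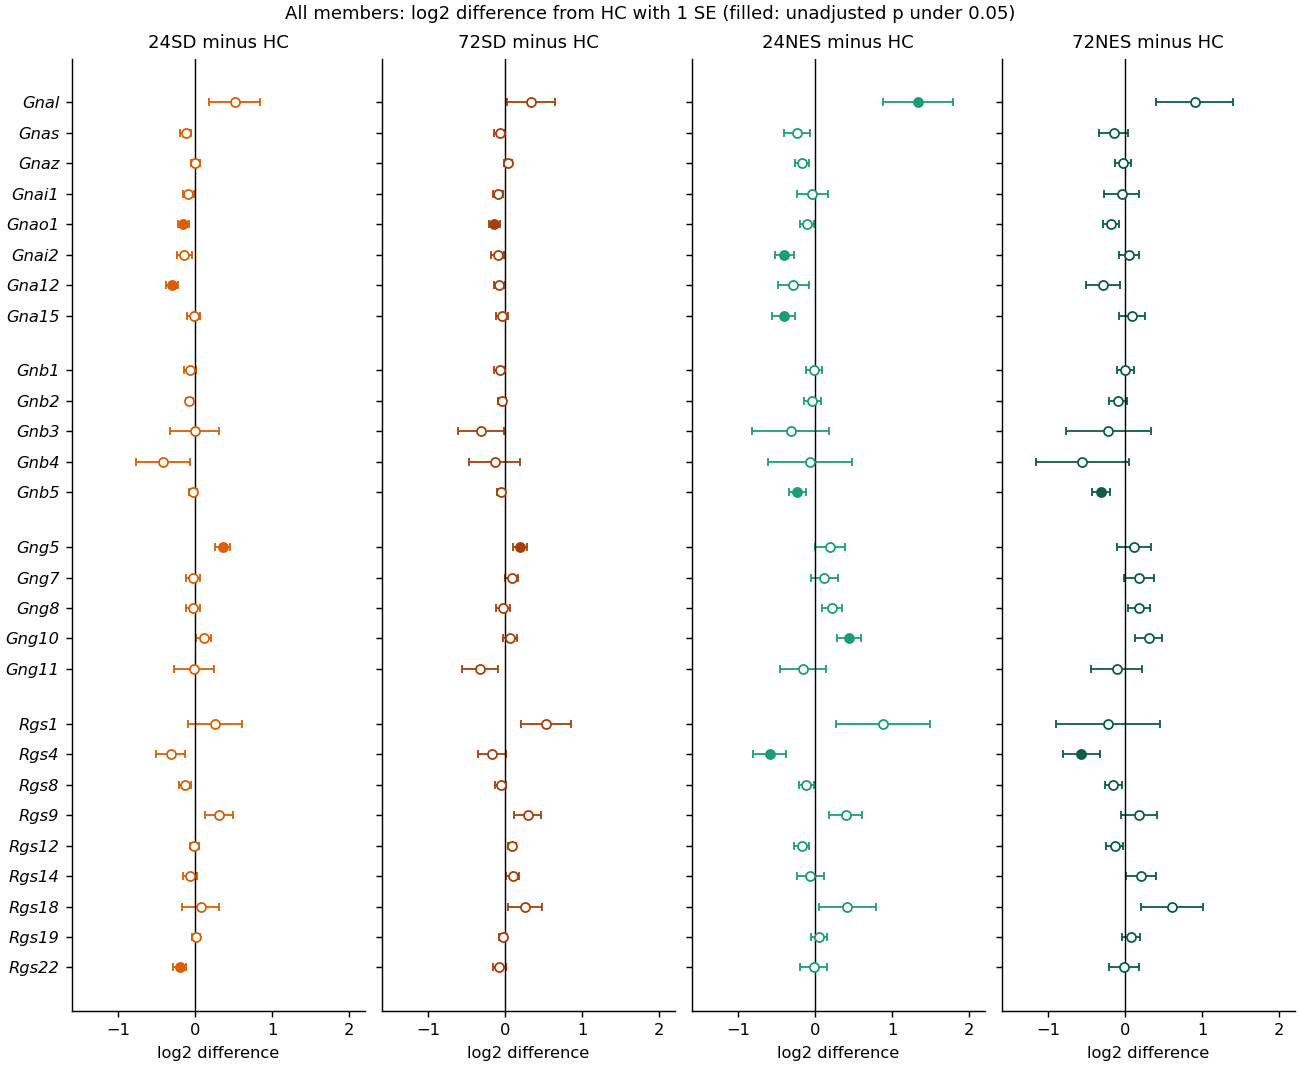
Log2 difference from HC with 1 SE for each of the 27 members in the 4 comparisons, grouped as alpha, beta, gamma and RGS, with filled points for an unadjusted p under 0.05. Most points lie near 0, with Gna12 (-0.30) and Gng5 (0.36) at 24SD and Rgs4 (-0.59) and Gnai2 (-0.40) at 24NES among the filled ones.

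With each cohort fitted alone, different members had an unadjusted p under 0.05. In cohort 1 there were 3 at 24SD (Gna12, Gng10 and Rgs4), beside 11.1% of all genes, 5 at 72SD (Gnal, Gnao1, Gnb1, Gng10 and Rgs4), beside 7.94%, and 3 over both durations, beside 8.13%. In cohort 2 there were 4 at 24SD (Gna12, Gnb4, Gng5 and Rgs22), beside 9.8%, 1 at 72SD (Gnai1), beside 6.44%, and 3 over both durations, beside 7.2%. Gna12 at 24SD was the 1 member that passed at the same time in both. Over both cohorts without HC arrays 6 and 17 there were 3 at 24SD (Gna12, Gng5 and Rgs4), beside 12.1%, 1 at 72SD (Rgs4), beside 6.36%, and 3 over both durations, beside 8.76%, and Gna12 at 24SD no longer passed the adjusted test (adjusted p of 0.106 in limma).

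For SD by cohort over both durations, 2 members, Gnaz and Rgs4, had an unadjusted p under 0.05, beside 6.69% of all genes, and without HC arrays 6 and 17 this was Rgs4 alone, beside 6.46%. None passed the adjusted test with those arrays (0.106% of all genes did) or without them (0.0845%). Without HC array 5 of cohort 1, Gnaz alone had an unadjusted p under 0.05 for SD by cohort, beside 5.7% of all genes. Set side by side, the cohorts gave like values for Gna12 and Gng5 and unlike values for Rgs4. Gnal at 72SD had log2 differences of 1.25 in cohort 1 and -0.14 in cohort 2, a difference of -1.38 ± 0.64 (SE), and Gnaz, a Gi class subunit, had -0.14 and 0.13, a difference of 0.27 ± 0.10 (SE). The unadjusted p was 0.0351 for Gnal and 0.0126 for Gnaz, with adjusted p of 0.616 and 0.491. With Rgs4 these were the 3 members past the unadjusted threshold in that comparison, beside 7.56% of all genes. Rgs4 did not pass it without HC array 2 or without HC array 5 of cohort 1. For 24SD by cohort, Rgs4 passed without each HC array of cohort 1 in turn. The probe sets of Gnaz differed in sign from each other in both 24SD and 72SD minus HC over both cohorts.

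**Figure D4:**
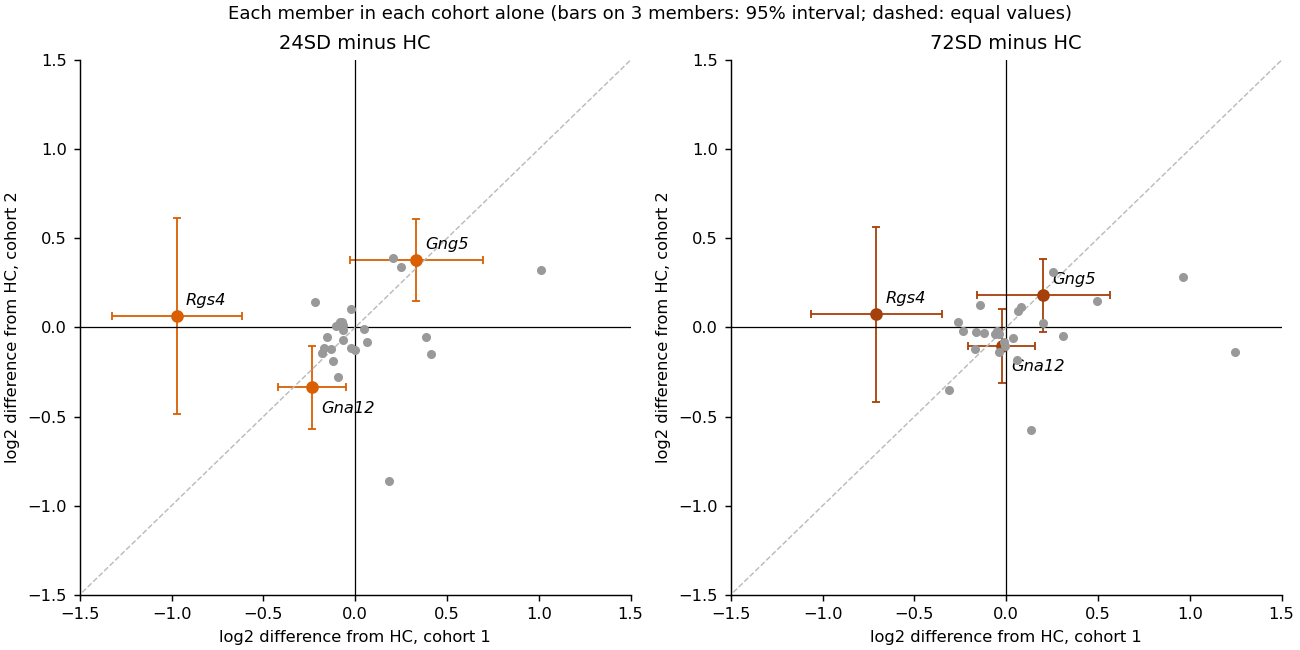
Log2 difference from HC of each member in cohort 1 (x axis) against cohort 2 (y axis), at 24SD and 72SD, with 95% intervals on Rgs4, Gna12 and Gng5. Rgs4 lies far to the left near 0 on the y axis, at -0.97 and 0.06 for 24SD, while Gna12 (-0.23 and -0.34) and Gng5 (0.33 and 0.38) lie near the line of equal values.

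The cohorts also differed in level, with group as a term. The Rgs4 signal of cohort 2 was 3.42-fold that of cohort 1 (log2 1.77 ± 0.15 SE, adjusted p of 1.97e-14 in limma), which ranked 7 in size among the 4736 genes. All 20 SD arrays of cohort 2 were at 630.3 or above and all 37 arrays of cohort 1 at 603.4 or below. Of the 27 members 17 passed the adjusted test, beside 52.6% of all genes, and the median size of the difference was 0.21 over the members and 0.23 over all genes. With HC arrays only, 7 members passed, beside 20.2% of all genes. After Rgs4 came Rgs9 (0.66 ± 0.15 SE), Gnao1 (-0.56 ± 0.06 SE), Gng11 (0.53 ± 0.20 SE) and Gna12 (-0.50 ± 0.06 SE). Among the 12 HC arrays of cohort 2, arrays 6 and 17 were the 2 nearest to cohort 1 in Rgs4, Rgs8, Rgs14 and Rgs22, 4 of the 17 members called. The same count over all genes is not given. The probe sets of Rgs8 differed in sign from each other for cohort 2 minus cohort 1. The 16 NES arrays of cohort 1, whose rats are not named as trained, had Rgs4 signals of 194.9 to 525.3. Over the HC and SD arrays, cohort, batch and training cannot be told apart, in level or in the effect of sleep deprivation. The part of training in the Rgs4 results was not tested.

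NES, the chamber stress without sleep loss by design, was measured in cohort 1 only, and no member passed the adjusted test, which 0 genes passed over both durations and at 72NES and 0.169% of all genes at 24NES. The HC rats were trained and the NES rats are not named as trained, so stress and training cannot be told apart in these differences. Unadjusted, 6 members had a p under 0.05 over both durations, beside 9.42% of all genes: Gnai2, Gna15, Gnb5 and Rgs4 with lower signals, and Gnal and Gng10 with higher signals. The number was 3 to 5, beside 7.92% to 9.21%, without 1 of the 5 HC arrays or without 72NES array 71. It was 3 (Gna15, Gnai2 and Gnal) without HC array 5, beside 8.38%. No other NES array was left out singly. The same 6 passed at 24NES, beside 11.9%, and Gnb5 and Rgs4 at 72NES, beside 5.34%. Over both durations Rgs4 did not pass without HC array 2, 3 or 5. At 72NES it did not pass without HC array 2, without HC array 5 or without 72NES array 71. At 24NES it passed in each of these fits. The 10 24NES arrays had Rgs4 signals from 210.5 through a median of 316 to 463.5, and the 6 72NES arrays from 194.9 through 349 to 525.3, with overlap with HC in both. The log2 difference was -0.59 ± 0.22 (SE) at 24NES, with an adjusted p of 0.267, and -0.57 ± 0.24 (SE) at 72NES, with an adjusted p of 0.880. Without 24NES arrays 60 and 61, the first was -0.63 ± 0.22 (SE).

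Gnai2, an inhibitory alpha subunit, differed between the durations of stress in the unadjusted test alone. Its HC signals were 7794.0, 8827.5, 9025.1, 9034.6 and 9216.7, the 24NES arrays ran from 5144.6 through a median of 6606 to 9188.3, and the 72NES arrays from 7646.2 through 8973 to 11876.4. The 24NES median was below all HC arrays and the 72NES median was within them. The log2 difference was -0.40 ± 0.12 (SE) at 24NES and 0.05 ± 0.13 (SE) at 72NES, and 72NES minus 24NES was 0.45 ± 0.11 (SE), with an unadjusted p of 0.000673 and an adjusted p of 0.507. Of its other 2 probe sets, 1 gave 0.34 ± 0.10 (SE) and the other 0.11 ± 0.10 (SE) for that difference. In 72NES minus HC the probe sets of Gnai2 differed in sign from each other. Gna15, a Gq class subunit of blood cells, had the same order: -0.41 ± 0.15 (SE) at 24NES, 0.09 ± 0.16 (SE) at 72NES, and 0.50 ± 0.14 (SE) between them. These were the 2 members past the unadjusted threshold for 72NES minus 24NES, beside 7.62% of all genes. Without arrays 60 and 61 the differences between the durations were 0.36 ± 0.10 (SE) for Gnai2 and 0.48 ± 0.14 (SE) for Gna15. The summed signal of the blood markers was 10670 to 12694 on the HC arrays, 4087 to 10928 on the 24NES arrays and 5964 to 10380 on the 72NES arrays, and the part of this in the Gna15 result was not tested.

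The other 3 members were Gnb5, Gng10 and Gnal. Without arrays 60 and 61 the members past the threshold over both durations numbered 4, beside 7.79% of all genes, and Gng10 and Gnal were no longer among them. At 24NES alone they numbered 5, beside 9.8%, and Gnb5 was no longer among them. Gnb5 had -0.23 ± 0.11 (SE) at 24NES and -0.31 ± 0.12 (SE) at 72NES, with medians of 3001 in HC, 2594 in 24NES and 2262 in 72NES. Beside it, all 5 astrocyte markers measured, of 6 listed, were lower at 72NES, 1 at an unadjusted p under 0.05, with a median log2 difference of -0.51 and summed signals of 42669 to 47306 in HC and 38947 to 46835 in 72NES, none at 0, and both blood markers were lower at 24NES at an unadjusted p under 0.05. Their part in the Gnb5 result was not tested. Gng10 had 0.44 ± 0.16 (SE) at 24NES, with medians of 3113 and 4548, and 0.35 ± 0.16 (SE) without arrays 60 and 61. Gnal had 1.34 ± 0.45 (SE) at 24NES, with signals of 30.1 to 151.2 in HC and 113.8 to 304.1 in 24NES. All overlapped with HC.

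Sleep deprivation was set against stress at matched duration in cohort 1. The SD rats were trained and the NES rats are not named as trained, so training cannot be told apart from treatment here. The log2 difference of Rgs4, 24SD minus 24NES, was -0.38 ± 0.17 (SE), with an unadjusted p of 0.0321 and an adjusted p of 0.741, and without 24NES arrays 60 and 61 the difference was -0.34 ± 0.18 (SE), with an unadjusted p of 0.0609. At 72 hours it was -0.14 ± 0.19 (SE). Gng8 differed by -0.28 ± 0.10 (SE) and Gna15 by 0.34 ± 0.13 (SE) at 24 hours, and with Rgs4 these were the 3 members past the unadjusted threshold, beside 6.21% of all genes. At 72 hours the 3 were Gnb1 (-0.27 ± 0.11 SE), Gnai2 (-0.28 ± 0.14 SE) and Rgs1 (1.18 ± 0.57 SE), beside 6.55% of all genes, and none of them passed the unadjusted threshold without 72NES array 71. The Rgs1 signals were 7.1 to 45.0 in 72SD and 3.8 to 53.3 in 72NES, and with signals under 50 set to 50 the difference was -0.02. The probe sets of Gng8 differed in sign from each other in both 24SD and 24NES minus HC, and those of Gnb1 in 72NES minus HC. No member passed the adjusted test at either time.

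The partners of the G proteins were read from lists of receptors, effectors and other regulators. No gene of these lists passed the adjusted test in SD or NES against HC, over both durations or at either. The other comparisons were not read for these lists. At 24SD, 8 of 30 Gi coupled receptors measured had an unadjusted p under 0.05, beside 15.2% of all genes, 3 higher and 5 lower, with a median log2 difference of -0.04. They included Adra2b (-0.28 ± 0.10 SE), an alpha-2 adrenoceptor, Gabbr2 (-0.17 ± 0.07 SE), a GABA-B subunit, and Grm4 (0.38 ± 0.16 SE), a metabotropic glutamate receptor. By the same unadjusted threshold, which 9.69% of all genes passed with a lower and 5.47% with a higher signal, 3 of 14 Gq coupled receptors had lower signals, with Htr2c, a serotonin receptor, at -0.34 ± 0.11 (SE), and 1 of 12 Gs coupled receptors did. Of 15 effectors 4 passed it, 1 higher and 3 lower: Adcy3, an adenylyl cyclase, had -0.19 ± 0.08 (SE), Adcy5, an adenylyl cyclase that Gi inhibits, had -0.16 ± 0.05 (SE), Kcnj9, a channel subunit opened by the beta and gamma dimer, -0.37 ± 0.15 (SE), and Plcb1, the phospholipase that Gq activates, 0.12 ± 0.05 (SE). Lower signals at this threshold were found for 2 of 8 receptor kinases and arrestins, and a higher signal for 1 of 4 other regulators.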

How the data were processed

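CA1 RNA of 69 rats was hybridized to 1 Affymetrix RGU34A array each. The intensity values were deposited by the authors as MAS5 signals (version not given in the sources used here), linear and scaled array by array, for 8799 probe sets. Of these 59 are controls, and 7006 of the rest carry 1 gene symbol in the platform annotation, 308 several and 1426 none. Signals of different probe sets are not comparable as RNA levels, 6 members are held by a probe set of the type that can match related transcripts, and detection calls were not used. Of 11 members with several probe sets, 8 had probe sets of 1 sign in 24SD minus HC and 9 in 72SD minus HC. The number was 6 at each duration of NES and 7 for cohort 2 minus cohort 1. All 27 members matched RefSeq (GRCr8) by gene number. Promoters are RefSeq sequences of that build.

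Signals were set to at least 1, put on the log2 scale and tested over 4736 genes with limma 3.58.1 in R 4.3.3 (lmFit, eBayes with a trend). SD was fitted on 53 arrays with cohort as a term, NES on 21 arrays of cohort 1 and SD against NES on its 37 arrays. Adjustment was by Benjamini-Hochberg across the genes tested, with a threshold of 0.05 for adjusted and unadjusted p. A moderated F-test covered both durations. The number of arrays limits the precision. The functions were tested on simulated data. Members, lists and the rule for named genes (Rgs4, members past a threshold, up to 10 with the smallest p in SD and 6 in NES, 5 for SD against NES, members that the study lists as changed, and the brightest and dimmest of each family) were chosen with earlier results of these data known. Leaving out HC arrays 6 and 17, or 24NES arrays 60 and 61, and the alternatives for Rgs4 in cohort 1, were chosen after seeing the data. Figures were drawn with Python 3.11.15 and matplotlib 3.10.9.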

Additional observations from a re-analysis of the deposited data

Results flagged for a closer look

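Single arrays stood apart from their group in 20 of 162 cells of member and group with 4 to 10 arrays, where chance alone sets about 1 in 20 apart. Of the 4 arrays with the highest 3′ to 5′ ratios of GAPDH, HC array 3 of cohort 1 (1.18) stood apart for no member, and the other 3 stood apart for at least 1: array 71 of 72NES (1.26) had the lowest Gna12 signal (816.2, next 1828.5), array 30 of 24SD in cohort 2 (1.18) had the highest Gnai2 (10397.6) and the lowest Gng10 (2884) signal, and array 43 of 72SD in cohort 1 (1.16) had the highest Rgs4 (520.5, next 319.6) and the lowest Gng10 (2300.7) signal. The part of RNA quality in these values was not tested.

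The other arrays that stood apart were all of cohort 1. HC and 72SD of cohort 2, with 12 arrays each, were too large for the rule, so 24SD was the only group of cohort 2 tested. In HC the lowest Gnai2 signal was 7794 (array 1). In 24SD the lowest signals were 469.7 for Gna15, 29.4 for Gnal, 29415.9 for Gnas and 44.1 for Gng11, each on another array. In 72SD the lowest signals were 2273.1 for Gnai1 and 41.2 for Gnal, and the highest Rgs18 signal was 61.1. In 24NES array 58 held the lowest Gnai1 (1205.2) and Gng5 (1476.9) signals, and array 59 the lowest Gnb1 (6739.5) and Gng11 (60.5) signals. In 72NES the highest signals were 189.7 for Gnb4 and 53.3 for Rgs1, and the lowest Gng5 signal was 1451.8.

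Effects that differed between cohorts at an unadjusted p under 0.05, as log2 differences of the effect in cohort 2 minus cohort 1, were 1.03 for Rgs4 and -0.44 for Gng10 at 24SD, and 0.78 for Rgs4, 0.27 for Gnaz and -1.38 for Gnal at 72SD. Between durations they were 0.22 for Gna12 in SD, and 0.45 for Gnai2 and 0.50 for Gna15 in NES. None of these 8 passed the adjusted test in limma.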

How the results depend on the processing

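Of 580 alternative values for the 40 results on named members, 560 kept their direction and their side of the adjusted threshold, 13 lost a call (all of Gna12 at 24SD), 6 gained one and 1 turned its sign. The one that turned was Rgs1 in 72SD minus 72NES, at -0.0154 with signals under 50 set to 50. For 72SD minus HC in cohort 1, the Rgs4 difference of -0.707 gained the call over the brighter 50% of signals alone (adjusted p of 0.0473), and without an HC array it ran from -0.79 to -0.63; for 24SD it ran from -1.05 to -0.894. With cohort left out of the model, members with an unadjusted p under 0.05 numbered 1 over both SD durations (2 with cohort), 1 at 24SD (4) and 0 at 72SD (2), beside 4.58%, 7.58% and 4.22% of all genes, and the methods' analysis of variance with removal of values over 2 SD gave 5 over both durations, beside 18.8%. The same analysis without that removal gave 3, beside 10.8%. At 72SD the number was 1 with each array centred on its median, beside 7.18% of all genes, and 5 in cohort 1 alone, beside 7.94%. It was 1 in cohort 2 alone, beside 6.44%, and 1 without HC arrays 6 and 17, beside 6.36%. For SD by cohort it was 1 without those arrays, beside 6.46%, and 2 with them, beside 6.69%. The cohort difference gave 17 members over the HC and SD arrays and 7 over HC arrays only, beside 52.6% and 20.2%. The single arrays left out were HC arrays 1 to 5 of cohort 1, 24SD array 30 and 72NES array 71. Array 30 was left out of SD fits only and array 71 of fits with NES only. Shares of all genes in brackets leave out the fits without array 30. The numbers ran from 2 to 4 over both SD durations (9.04% to 10.5%) and 3 to 5 at 24SD (13.8% to 15.7%). The 5 at 24SD came without array 30, so no share of all genes stands beside it. At 72SD the numbers ran from 0 to 2 (6.84% to 7.96%), and over both NES durations from 3 to 5 (7.92% to 9.21%). They were 5 to 7 at 24NES (9.84% to 12.3%) and 1 to 3 at 72NES (4.16% to 5.45%). For 24SD minus 24NES they were a constant 3 (6% to 6.46%), and for 72SD minus 72NES 0 to 4 (4.29% to 6.65%). For SD by cohort they were 1 to 3 (5.66% to 6.33%). The lowest or highest came without HC array 5 over both SD durations (4) and both NES durations (3), without HC array 3 at 72SD (0; 1 without HC array 2), without HC array 2 or 5 at 72NES (1), without HC array 3 or 5 for SD by cohort (1) and without 72NES array 71 for 72SD minus 72NES (0). For SD by cohort the 1 member was Rgs4 without HC array 3 and Gnaz without HC array 5. The causes were not tested. No paired analysis was possible because the groups share no replicate numbers.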
